A study of Mus musculus with 18 samples.

Results

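The vascular growth factor genes Vegfa, Vegfb, Vegfc, Vegfd, Pgf, Angpt1, Angpt2 and Angptl2 were followed by name in RNA sequencing counts of cardiac fibroblasts from neonatal mice. They are 8 of the 55453 gene symbols in the count table, and all 8 were among the 16170 genes abundant enough to be tested. The first 5 encode the ligands of the VEGF family and the other 3 encode 2 angiopoietins and an angiopoietin-like protein.

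VEGF ligands are secreted dimers that bind receptor tyrosine kinases on endothelial cells. VEGF-A acts mainly through VEGFR2 and drives vessel sprouting and permeability, PlGF and VEGF-B bind VEGFR1, and VEGF-C and VEGF-D act through VEGFR3 on lymphatic endothelium. Angiopoietins bind the receptor Tie2, which Angpt1 activates and Angpt2 often antagonizes, and so set the quiescence of vessels. Angptl2 resembles the angiopoietins in structure but does not bind Tie2, and it is known as a secreted factor in inflammation and tissue remodeling. In the heart, fibroblasts and other perivascular cells are one source of such ligands, while the receptors sit largely on the endothelium.

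Fibroblasts were sorted as GFP+ cells from the apical part of the ventricles. All pups were Tcf21-MerCreMer; Rosa-mTmG, heterozygous for both alleles by the methods of the study, of the labelled strain C57BL/6J, and were given tamoxifen at P1. The Tcf21 promoter drives the inducible Cre, so GFP marks cells with Tcf21 activity around P1 and their descendants, whatever they expressed later. There were 6 groups of 3 libraries: un-manipulated pups collected at P2 or P10 (baseline), sham-operated pups and pups with the apex resected, operated on at either age and collected after 3 more days. P2 surgery falls in the period when the mouse heart can regenerate and P10 surgery after it. Baseline pups were collected at P2 and P10 but operated pups at P5 and P13, so the P2 window below holds ages P2 to P5 and the P10 window ages P10 to P13. Neither the sex of the pups nor the number pooled per library was given, and nothing states that the 3 libraries of a group came from separate litters, so p-values measure the spread between these libraries.

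The libraries held 10462737 to 22980554 counted reads each. The unit of level is CPM, counts brought to one common total with TMM factors. The 9 fibroblast markers, led by Col3a1, summed to 54241 to 117326 CPM per library, and Tcf21 averaged 290 CPM. The 9 endothelial markers summed to 34.6 to 263 CPM and the 10 macrophage markers to 5.29 to 985 CPM. Cardiomyocyte markers summed to 163 to 1477 CPM and mural cell markers to 1050 to 2456 CPM. Of the epicardial list, Aldh1a2 averaged 1119 CPM and each of the other 7 markers under 3 CPM. Fibroblast markers were thus the most abundant of these lists, while the other lists were present at unequal levels. Acta2 of the mural list, at 693 CPM, was above Tcf21, and which cells its RNA came from was not tested. With the libraries thinned to one depth, resected libraries detected more genes than sham libraries, 18299 to 19510 against 15710 to 16704 at P2 and 16732 to 18694 against 15707 to 15925 at P10.

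Angptl2 and Pgf were the members whose level passed the test for age, and 250 bases upstream of their RefSeq transcription start are shown to place that result (GRCm38.p6, 5' to 3' on the gene's strand). Capitals mark the core of the hypoxia response element, searched as ACGTG or GCGTG on either strand, since Vegfa is a known hypoxia target.

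Angptl2, chr2:33215711-33215960, plus strand: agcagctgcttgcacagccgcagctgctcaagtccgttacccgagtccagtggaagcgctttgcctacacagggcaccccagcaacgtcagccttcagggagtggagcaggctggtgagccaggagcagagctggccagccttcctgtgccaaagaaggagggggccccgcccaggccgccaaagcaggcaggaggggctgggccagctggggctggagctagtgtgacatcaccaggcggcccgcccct

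Pgf, chr12:85177314-85177563, minus strand: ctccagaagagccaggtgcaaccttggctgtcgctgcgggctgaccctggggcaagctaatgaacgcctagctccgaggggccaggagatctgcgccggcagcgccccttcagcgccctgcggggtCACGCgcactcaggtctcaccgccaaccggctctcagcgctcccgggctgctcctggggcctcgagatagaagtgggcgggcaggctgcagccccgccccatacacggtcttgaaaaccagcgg

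The Angptl2 window held no such core and the Pgf window held 1, at the reverse complement of GCGTG. Windows were listed for 6 of the 8 members, not for Angpt1 and Angpt2. A core was found in 38.6% of the 32851 windows of all genes, so its presence at Pgf is a description of these letters and not a site. A second start of Pgf held none, Vegfb held 2, and Vegfc and Vegfd held none. The Vegfa window just before the annotated gene held none. That of a second Vegfa start held 2, but it lies inside the annotated gene (46025164 to 46025413), not upstream of it.

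Angptl2 was by far the most abundant of the 8 transcripts. Per kilobase of exon it averaged 298 RPKM over the 18 libraries, against 34.7 RPKM for Pgf. Vegfb followed with 18.0 RPKM, Vegfa with 15.6 RPKM, Vegfc with 15.5 RPKM and Vegfd with 7.24 RPKM. Angpt2 with 2.38 RPKM and Angpt1 with 1.82 RPKM were the least abundant. The 5 VEGF ligands thus formed one band of moderate levels, and the 2 angiopoietins lay below it.

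Per length, Pgf was the highest of the 5 VEGF ligands in 15 of 18 libraries. Its share of the summed VEGF ligand level was 31.4% ± 9.64 (SD, n = 3) at P2 baseline, 34.9% ± 9.58 after P2 sham surgery and 32.4% ± 2.50 after P2 resection. At P10 the share was 40.8% ± 13.3 (SD, n = 3) in baseline libraries, 45.0% ± 1.14 in sham libraries and 39.7% ± 6.97 in resected libraries. These shares are of transcripts and were not tested.

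**Figure D1:**
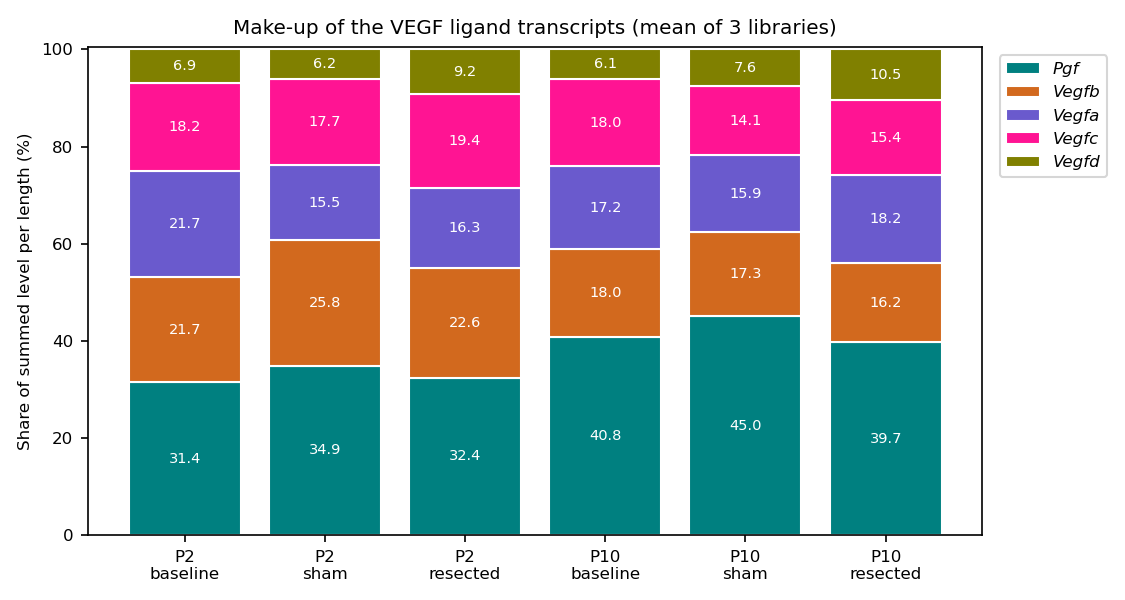
Share of each VEGF ligand gene (Pgf, Vegfb, Vegfa, Vegfc, Vegfd) in the summed level per exon length of the 5 genes, in %, as the mean of 3 libraries in each of the 6 groups. Pgf is the widest band in every group, from 31.4% at P2 baseline to 45.0% after P10 sham surgery, and Vegfd the narrowest.

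Vegfa lies on chromosome 17 (46016993 to 46032369), Vegfb on chromosome 19 (6982473 to 6987651), Vegfc on chromosome 8 (54077606 to 54187096), Vegfd on chromosome X (164373378 to 164402650) and Pgf on chromosome 12 (85166635 to 85177790), in GRCm38. Angpt1 lies on chromosome 15 (42424723 to 42676977), Angpt2 on chromosome 8 (18690263 to 18741562) and Angptl2 on chromosome 2 (33216069 to 33247717). The counts cover the exons, UTRs included. The exons of 7 genes overlapped no other gene, while 14.16% of the exon bases of Angpt1 were shared with Gm17473 on the opposite strand. Reads were counted without regard to strand, so reads from that stretch cannot be assigned to either gene, and the level of Angpt1 is uncertain to that extent.

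Ordered by group, the levels of the members differed in how they were arranged. Angptl2 was highest at P10 baseline, with 2382 ± 231 CPM (SD, n = 3), and lowest at P2 baseline, with 1418 ± 127 CPM. Between these came P10 sham with 2128 ± 277 CPM, P2 resected with 1822 ± 144 CPM, P10 resected with 1810 ± 257 CPM and P2 sham with 1691 ± 5.17 CPM. Neighbours in this order overlapped except P10 sham with P2 resected and P2 sham with P2 baseline. In the other 7 members every pair of neighbouring groups overlapped.

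Pgf ran from 132 ± 59.9 CPM in P10 resected libraries through 120 ± 15.4 CPM in P10 sham and 120 ± 54.5 CPM at P10 baseline to 87.5 ± 15.8 CPM in P2 resected, 77.6 ± 16.1 CPM in P2 sham and 69.3 ± 21.5 CPM at P2 baseline libraries (SD, n = 3 each). All P10 means were thus above all P2 means. Vegfd was highest in the resected groups, with 30.3 ± 22.3 CPM at P10 and 20.1 ± 3.81 CPM at P2, and lay between 11.4 ± 1.77 CPM in P2 sham and 16.4 ± 4.46 CPM in P10 sham libraries otherwise. Vegfa lay between 52.5 ± 27.6 CPM in P2 sham and 82.1 ± 5.86 CPM in P10 resected libraries.

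Vegfb lay between 24.7 ± 7.02 CPM in P10 sham and 33.4 ± 3.58 CPM in P2 resected libraries, and Vegfc between 32.2 ± 9.94 CPM in P10 sham and 44.0 ± 9.22 CPM in P2 resected libraries. Angpt2 was highest in P2 resected libraries, with 12.6 ± 5.26 CPM, and lowest in P10 resected libraries, with 5.18 ± 3.51 CPM. Angpt1 was highest in P10 resected libraries, with 15.9 ± 5.44 CPM, and lowest at P2 baseline, with 3.37 ± 0.216 CPM. Replicates of a group thus varied little in Angptl2 (median SD of 9.31% of the mean) and most in Angpt2 (42.4%).

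The first comparison asked which ligands differed between the window in which the heart regenerates and the one in which it does not. Pgf, which encodes PlGF, and Angptl2 rose from P2 to P10. Vegfa, Vegfb, Vegfc, Vegfd, Angpt1 and Angpt2 did not pass the test. The rise was thus found in 2 of 8 members, against 13.5% of all genes tested that were called in either direction, and the median log2 fold change was 0.27 over the members and -0.06 over all genes. A fold is between mean levels of bulk RNA, in which more cells of a type and more RNA per cell cannot be told apart.

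Angptl2 ranged from 1276 to 1957 CPM in the 9 libraries of the P2 window, with a median of 1685 CPM. In the 9 libraries of the P10 window it ranged from 1603 to 2537 CPM, with a median of 2097 CPM. The lowest P10 libraries thus lay within the P2 range. The log2 fold change was 0.36 (standard error 0.10), or 1.28-fold (edgeR's quasi-likelihood test, Benjamini-Hochberg adjusted p = 0.0192). The call was lost without P10 baseline replicate 2 (adjusted p = 0.0509), P10 sham replicate 2 (adjusted p = 0.0543) or P10 resected replicate 2 (adjusted p = 0.0559), and when every gene with at least 1 count was tested (adjusted p = 0.0999).

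Pgf ranged from 53.2 to 99.7 CPM in the P2 window, with a median of 86.0 CPM. In the P10 window it ranged from 58.3 to 199 CPM, with a median of 123 CPM. Only 2 libraries of P10, baseline replicate 1 and resected replicate 1, were below the highest P2 library. The log2 fold change was 0.67 (standard error 0.21), or 1.59-fold (edgeR, adjusted p = 0.0418). This call was close to the threshold. It held when P2 baseline replicate 3, P2 sham replicate 2, P10 baseline replicate 1 or P10 resected replicate 1 was left out, and it was lost without any one of the 14 other libraries (adjusted p up to 0.0957), while the log2 fold change stayed between 0.54 and 0.78. Cardiomyocyte markers moved with the same comparison, as 5 of 10 were lower in the P10 window, and so did mural cell markers, of which 4 of 9 were higher and 1 was lower. Of the 9 fibroblast markers 3 were higher and 1 was lower, and the 10 macrophage markers had a median log2 fold change of 1.13 with 1 called. Their part in the calls of Pgf and Angptl2 was not tested.

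**Figure D2:**
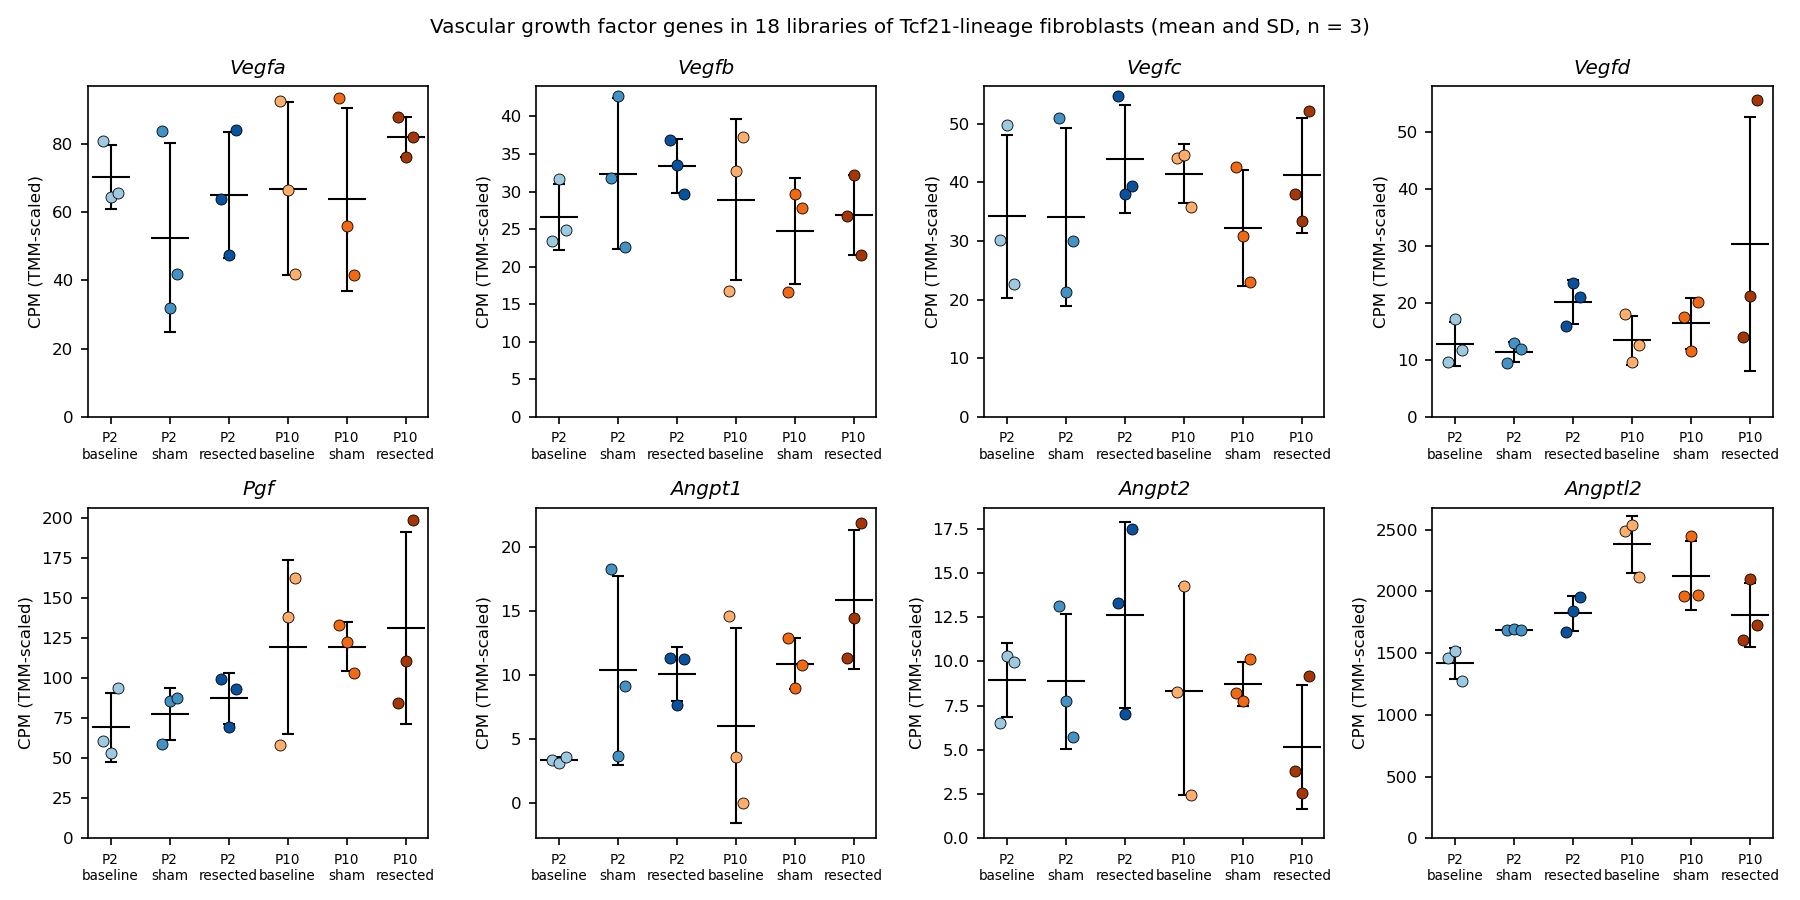
Level of each member in CPM (TMM-scaled, linear axis) in the 18 libraries by group. Points are libraries, bars the mean and SD of 3. Angptl2 rises from 1418 CPM at P2 baseline to 2382 CPM at P10 baseline, while in Vegfa, Vegfb and Vegfc all groups next to each other in the order of their means overlap.

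Angpt2, the Tie2 ligand stored in endothelial cells, was at 5.74 to 17.5 CPM in the P2 window and at 2.47 to 14.3 CPM in the P10 window, and these ranges overlapped. Its log2 fold change of -0.47 had a 95% interval of -1.19 to 0.25. Angpt1, the Tie2 agonist made by perivascular cells, was at 3.16 to 18.3 CPM in the P2 window and at 0 to 21.9 CPM in the P10 window. Its 0 was no count in P10 baseline replicate 3, which at 3 counts would still allow 0.296 CPM. Neither angiopoietin passed the test.

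Among the remaining VEGF ligands, Vegfa was at 31.9 to 84.1 CPM in the P2 window and 41.6 to 93.6 CPM in the P10 window, with a log2 fold change of 0.18 (95% interval -0.27 to 0.63). Vegfb, a ligand linked to myocardial metabolism, was at 22.6 to 42.7 CPM and 16.7 to 37.2 CPM in the same order (log2 fold change -0.20, 95% interval -0.60 to 0.21). Vegfc and Vegfd, the lymphatic ligands, had log2 fold changes of 0.03 (95% interval -0.40 to 0.46) and 0.39 (95% interval -0.14 to 0.93). The windows of all 8 members overlapped, where 2.51% of all genes had windows that did not. These intervals leave room for differences of up to about the size found for Pgf in Vegfa and beyond it in Vegfd, Angpt1 and, as a lower level at P10, Angpt2.

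**Figure D3:**
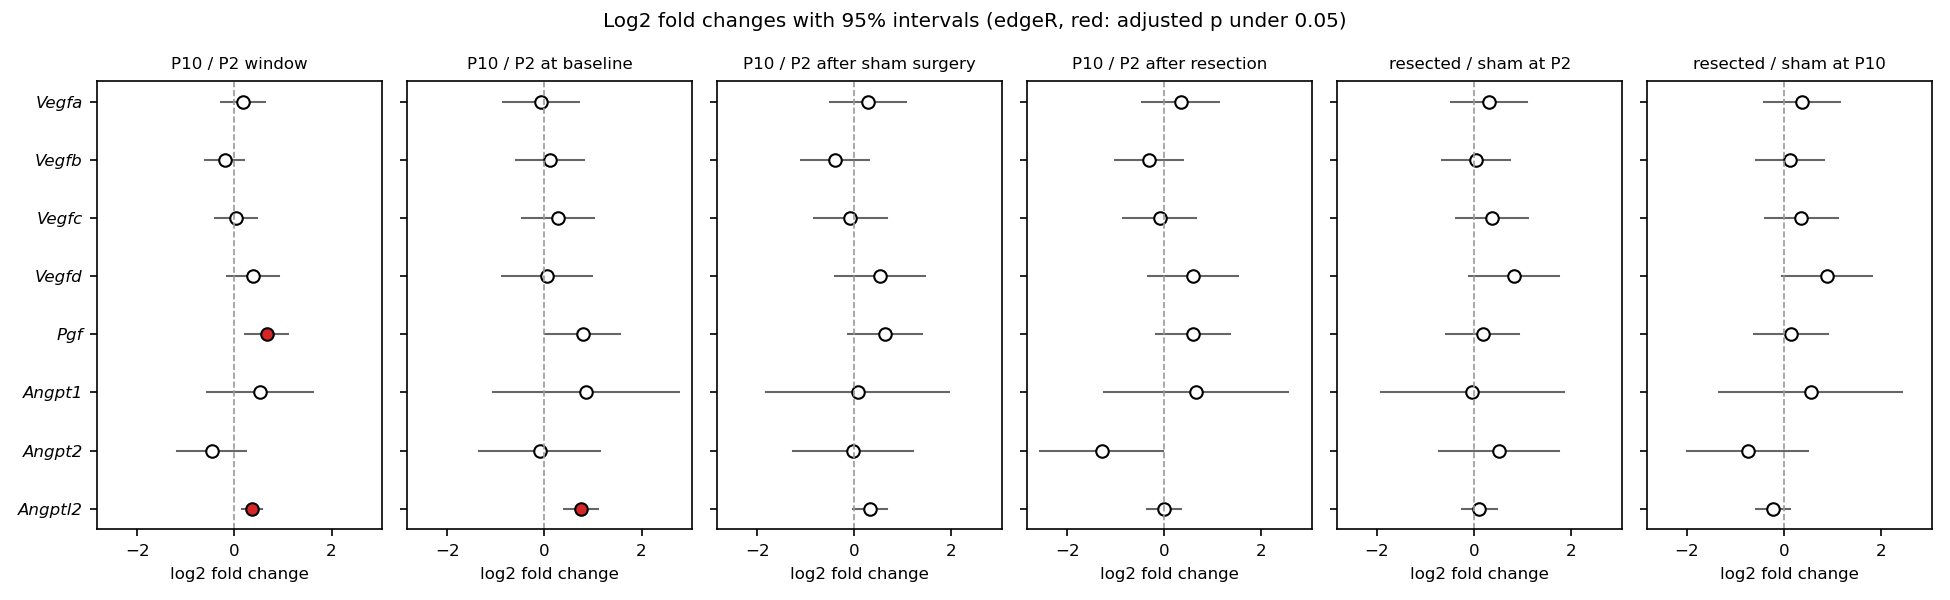
Log2 fold change (point) with its 95% interval (line) of the 8 members in the P10 against P2 comparisons and in resected against sham at each age. Red points have an adjusted p under 0.05. Red are Pgf and Angptl2 in the window comparison and Angptl2 at baseline, and every interval of resection against sham includes 0.

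Comparing un-manipulated pups only, which separates age from surgery, left Angptl2 as the member that rose. It was at 1459, 1519 and 1276 CPM in the 3 libraries of P2 baseline and at 2493, 2537 and 2117 CPM in those of P10 baseline. Every P10 library lay above every P2 library. The log2 fold change was 0.75 (standard error 0.17), or 1.68-fold (edgeR, adjusted p = 0.0162), in a comparison in which 4.38% of all genes were called and 22.4% had groups that did not overlap. Leaving out P10 baseline replicate 2 (adjusted p = 0.0876), P2 baseline replicate 1 (adjusted p = 0.0699) or P2 baseline replicate 3 (adjusted p = 0.0779) removed the call, as did testing every gene with at least 1 count (adjusted p = 0.0689) or fitting these 2 groups alone (adjusted p = 0.0730). In this comparison 3 of 9 fibroblast markers (Col3a1, Dcn and Lum) were higher as well, as were 4 of 9 mural cell markers, led by Myh11 and Higd1b. One endothelial marker of 9 was also called higher, with a list median of -0.29. The 10 cardiomyocyte markers had a median log2 fold change of -1.19 with none called. They summed to 1092 to 1477 CPM at P2 and to 525 to 702 CPM at P10. The macrophage median was 0.97 with none called. The part of these lists in the rise of Angptl2 was not tested.

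Pgf at baseline was at 61.0, 53.2 and 93.8 CPM at P2 and at 58.3, 138 and 162 CPM at P10. A single P10 library, replicate 1, sat in the P2 range. The other P10 baseline libraries carry a letter P in their sample titles that replicate 1 lacks, and its meaning was not given. The log2 fold change of 0.79 (standard error 0.36) did not pass the test (edgeR, adjusted p = 0.252), and without P10 baseline replicate 1 it was 1.12 (adjusted p = 0.0495). Angpt1 was at 3.36, 3.16 and 3.59 CPM at P2 baseline and at 14.6, 3.58 and 0 CPM at P10 baseline, so that its log2 fold change of 0.86 rested on 1 library and was -0.85 without it. The others had log2 fold changes between -0.09 for Angpt2 and 0.28 for Vegfc.

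After sham surgery, no member passed the test between the ages, where 3.18% of all genes were called. Angptl2 was at 1691, 1695 and 1685 CPM after P2 sham surgery and at 1963, 2447 and 1973 CPM after P10 sham surgery. Pgf was at 59.1, 86.0 and 87.8 CPM and at 133, 123 and 103 CPM in the same order. These 2 members did not overlap between the ages, nor did 16.7% of all genes. The log2 fold changes were 0.33 for Angptl2 (edgeR, adjusted p = 0.335) and 0.62 for Pgf (adjusted p = 0.416).

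After resection, no member passed the test either, where 0.86% of all genes were called. Angptl2 was at 1671, 1838 and 1957 CPM after P2 resection and at 1603, 2097 and 1729 CPM after P10 resection. The 2 ages overlapped, with a log2 fold change of -0.01 (95% interval -0.36 to 0.34). Pgf was at 99.7, 69.6 and 93.0 CPM at P2 and at 84.6, 111 and 199 CPM at P10, a log2 fold change of 0.59 (adjusted p = 0.763) that was 0.18 without P10 resected replicate 3. Angpt2 was at 13.3, 7.05 and 17.5 CPM after P2 resection and at 3.83, 2.54 and 9.17 CPM after P10 resection. Its P10 libraries included the lowest but overlapped the P2 libraries (log2 fold change -1.29, standard error 0.60, edgeR's unadjusted p = 0.0462, adjusted p = 0.554). With each library left out it was -0.96 to -1.96, the larger fall without P10 resected replicate 3. The markers of endothelial cells, which are known to make Angpt2, summed to 84.9 to 248 CPM in the P10 resected libraries (median 109 CPM) and to 50.9 to 263 CPM in the P2 resected libraries (median 52.1 CPM), where Angpt2 was the higher. Their part in the level of Angpt2 was not tested. Angpt1, at 11.3, 7.69 and 11.3 CPM and at 11.3, 14.4 and 21.9 CPM, was the 1 member without overlap between the ages, by a margin of under 1 CPM, against 23.3% of all genes.

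The age difference of Angptl2 was thus largest at baseline, smaller after sham surgery and near 0 after resection in these values. The difference between the age effect after resection and at baseline was -0.76 (standard error 0.24, edgeR's unadjusted p = 0.00502), and it did not pass adjustment (adjusted p = 0.470, against 0.0557% of all genes called). DESeq2 gave -0.76 with an adjusted p of 0.0465, where it called 137 of 15493 genes. The same difference for sham surgery was -0.42 (standard error 0.24, edgeR, adjusted p = 0.855, against 0% of all genes called, 1067 at an unadjusted p under 0.05, and 129 genes called by DESeq2). Both contrasts share the baseline libraries and were chosen after the values were seen. Beside them, the median log2 fold change with age of the 9 fibroblast markers was 0.78 at baseline, 0.39 in sham and 0.12 in resected libraries, and that of the 9 mural cell markers was 0.86, 0.14 and -0.27. Whether these lists account for part of the pattern in Angptl2 was not tested.

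**Figure D4:**
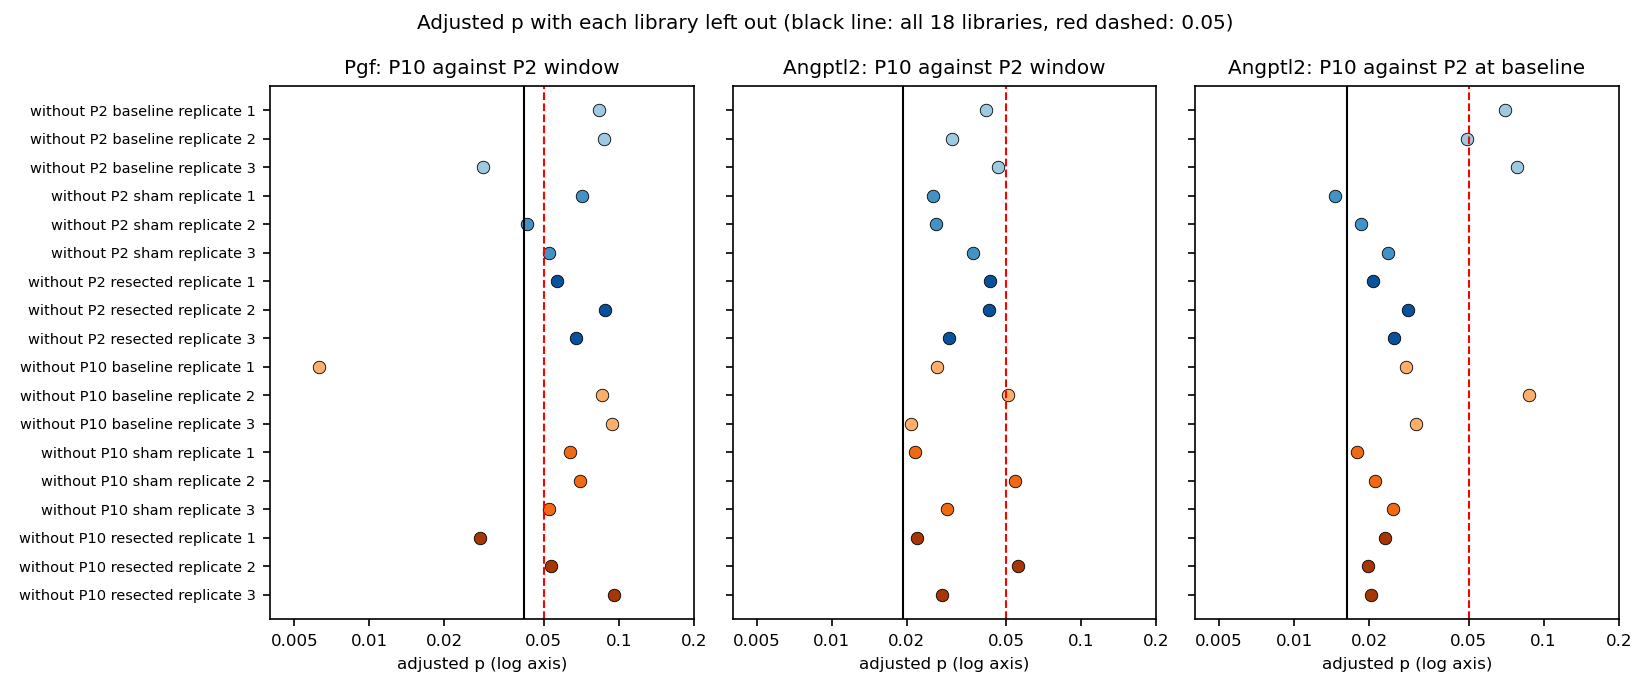
Adjusted p (log axis) of Pgf and Angptl2 in the P10 against P2 window and of Angptl2 at baseline when each of the 18 libraries is left out in turn. The black line is the value with all libraries (0.0418, 0.0192 and 0.0162) and the red dashed line the threshold of 0.05, which Pgf passes in 4 of 18 cases and Angptl2 in 15 of 18 in each panel.

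Resection against sham surgery asked whether injury changed the ligands. No member passed the test at P2 or at P10, nor did any of the 16170 genes in edgeR (0% called at each age, with 730 genes at an unadjusted p under 0.05 at P2 and 661 at P10). DESeq2 called 34 and 43 genes and edgeR with every gene of at least 1 count 24 and 76, with no member among them, and limma voom called 0 at each age. With the replicate number as a block edgeR called 1 gene at each age, and without P10 sham replicate 2 it called 5 at P10, again with no member among them. Vegfd had the largest log2 fold change of the members at both ages, and Vegfa and Vegfc were higher on average in resected libraries without passing the test.

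Vegfd, the lymphatic ligand also called Figf, was at 9.47, 12.9 and 11.9 CPM after P2 sham surgery and at 16.0, 23.4 and 21.0 CPM after P2 resection. All 3 resected libraries were above the sham libraries, as was one group over the other for 8.47% of all genes. The log2 fold change was 0.82 (standard error 0.44, 95% interval -0.11 to 1.74, edgeR, adjusted p = 1). At P10 it was at 17.5, 11.5 and 20.2 CPM after sham surgery and at 14.0, 21.2 and 55.7 CPM after resection. Here the mean was set by resected replicate 3, which held 717 counts of Vegfd. The log2 fold change, 0.88 (standard error 0.44, edgeR, adjusted p = 1), was 0.10 without that library.

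Over both ages, a comparison chosen after these values were seen, Vegfd averaged 25.2 CPM in the resected and 13.9 CPM in the sham libraries. Its log2 fold change was 0.85 (standard error 0.31, edgeR's unadjusted p = 0.0144), which did not pass adjustment (adjusted p = 0.727), and it was 0.45 without P10 resected replicate 3. No gene was called by edgeR (0%, 934 genes at an unadjusted p under 0.05), while DESeq2 called 91 genes and limma voom 51, with no member among them. With every gene of at least 1 count edgeR called 96 and with the replicate block 1, again with no member among them. In P10 resected replicate 3 Aldh1a2, of the epicardial list, was at 2092 CPM, against 1279 and 1094 CPM in the other P10 resected libraries, while the other 7 epicardial markers summed to 3.96 CPM, against 56.7 and 11.1 CPM. In the macrophage list the same library was the lowest of its group, with 61.0 CPM against 384 and 985 CPM. Over the 4 groups, macrophage markers summed to 5.29 to 154 CPM after P2 sham surgery and 60.5 to 386 CPM after P2 resection, and to 82.0 to 302 CPM and 61.0 to 985 CPM at P10. Their median log2 fold change with resection was 0.98 at P2 and 1.26 at P10, and that of the endothelial markers was 0.74 and 1.08, against 0 and 0.02 over all genes, with no marker of either list called. By median log2 fold change both lists were thus higher in resected libraries, as were the means of Vegfd, Vegfa and Vegfc. The summed endothelial markers had a lower median after P2 resection (52.1 CPM, 50.9 to 263 CPM) than after P2 sham surgery (67.8 CPM, 51.9 to 135 CPM). At P10 their median sum was 109 CPM after resection and 62.2 CPM after sham surgery. The epicardial median was -0.15 at P2 and 3.71 at P10, but 7 of the 8 epicardial markers averaged 0.446 to 2.84 CPM and had no count in 5 to 13 of the 18 libraries. Mural markers had medians of 0.57 and 0.26 and cardiomyocyte markers of -0.84 and 0.38, again with none called. The part of these cells in the levels of the members was not tested.

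Vegfa, which was at 84.0, 31.9 and 41.8 CPM after P2 sham surgery and at 63.7, 47.4 and 84.1 CPM after P2 resection, overlapped between the groups (log2 fold change 0.31, 95% interval -0.48 to 1.09). At P10 it was at 93.6, 56.1 and 41.6 CPM and at 88.0, 76.3 and 82.0 CPM (log2 fold change 0.36, 95% interval -0.42 to 1.15). Without sham replicate 1 of the same age, the highest sham library, these values were 0.82 at P2 and 0.75 at P10, and with any other library left out Vegfa was as low as 0.03 at P2 and 0.13 at P10. Vegfc gave 0.37 at P2 and 0.36 at P10, and with each library left out it was 0.11 to 0.78 at P2 and 0.14 to 0.61 at P10. For Pgf it was 0.17 at P2 (95% interval -0.59 to 0.93) and 0.14 at P10 (95% interval -0.62 to 0.89), and for Vegfb 0.04 and 0.12. A rise of up to 2-fold in Vegfa was therefore within the interval at both ages.

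Angptl2 differed by 0.11 between resected and sham libraries at P2 (95% interval -0.24 to 0.46) and by -0.23 at P10 (95% interval -0.58 to 0.12), the narrowest intervals of the 8 members. Angpt2 was at 13.1, 7.75 and 5.74 CPM after P2 sham surgery, against the P2 resected values given above, with a log2 fold change of 0.51, which was 0.20 without P2 resected replicate 3 and 0.90 without P2 sham replicate 1. At P10 it was at 8.24, 7.76 and 10.1 CPM in sham libraries, and the log2 fold change was -0.75, which was -1.45 without P10 resected replicate 3 and -0.43 without P10 resected replicate 2. Its opposite signs were tested as the resection effect at P10 minus that at P2, which was -1.26 (standard error 0.84, edgeR, adjusted p = 1.00), in a comparison with 0% of genes called, 465 at an unadjusted p under 0.05 and 26 called by DESeq2. It was -0.94 to -1.93 with each library left out. Only Vegfd at P2 was without overlap among the 8 members, and none was at P10, where 8.68% of all genes were.

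Sham surgery against baseline also held 3 days of growth and was used as a check of the controls. No member passed the test at P2 (0% of all genes called by edgeR, 1229 at an unadjusted p under 0.05) or at P10 (0.00618% called, 1 gene). DESeq2 called 180 genes at P2 and 164 at P10, and edgeR with every gene of at least 1 count 110 and 151, again with no member among them. At P2, Angpt1 was at 18.3, 3.74 and 9.14 CPM after sham surgery, above all 3 baseline libraries (log2 fold change 1.62, standard error 0.92, edgeR, adjusted p = 0.710). Leaving out P2 sham replicate 1 gave 0.93, and 2.03 was found without P2 sham replicate 2. Angptl2 at P2 did not overlap either (log2 fold change 0.25, adjusted p = 0.784), and 9.96% of all genes did not. The gene edgeR called at P10 among the 16170 was Angptl4, a hypoxia- and lipid-responsive relative of Angptl2, which averaged 417 CPM after sham surgery and 146 CPM at baseline. In edgeR no gene was called without P10 sham replicate 3, P10 baseline replicate 2 or P10 baseline replicate 3.

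The genes around the members in the pathway were read from 6 lists of 50 genes. In the P10 window 12 of the 50 were higher and 2 were lower, where 13.5% of all genes were called in either direction. The counts by list below are to be read against that share, and with lists this short each rests on a few genes. Unlike those of the members, these calls were not checked with libraries left out. No gene of these lists was called between resected and sham libraries at either age. None of the genes called was a receptor.

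Of the 8 VEGF and Tie receptors none passed the test. Tek, which encodes Tie2, was the most abundant, with 154 to 252 CPM in the P2 window and 197 to 454 CPM in the P10 window (log2 fold change 0.45, edgeR, adjusted p = 0.0582). Nrp1, a VEGF co-receptor found on many cells, averaged 178 and 226 CPM. Per length, Tek averaged 52.3 RPKM, while the endothelial receptors Tie1 and Kdr averaged 2.38 and 1.45 RPKM. The Tek transcript was thus present in the sorted libraries at over 10 times the level per length of either, with no overlapping gene in the annotation.

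Of 5 genes that process VEGF-C and VEGF-D, 2 rose between the windows and none fell. None of the 5 was called between the ages at baseline, after sham surgery or after resection taken singly. Ccbe1, which is needed to activate VEGF-C, averaged 4.43 CPM in the P2 window and 18.7 CPM in the P10 window, with no overlap between the 9 libraries of each (log2 fold change 2.29, standard error 0.50, edgeR, adjusted p = 0.00488). Furin, the protease that cleaves the precursors, averaged 117 and 161 CPM (log2 fold change 0.48, adjusted p = 0.0191). In resected libraries it averaged 143 CPM at P2 and 152 CPM at P10. Pcsk5 averaged 31.5 and 42.0 CPM and did not pass.

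Of 7 other angiopoietin-like genes and Tie ligands, 4 rose. Angptl4 was at 158 CPM in the P2 window and 326 CPM in the P10 window (log2 fold change 0.94, standard error 0.11, edgeR, adjusted p = 2.41e-05). By group it averaged 120, 137 and 218 CPM at P2 baseline, sham and resected and 146, 417 and 414 CPM at P10. Angptl1 averaged 14.0 and 37.4 CPM, with 16.37% of its exon bases shared with Gm37802 on the other strand, and Angptl7 5.69 and 25.6 CPM. Angpt4 was called as well, at 0 to 0.854 CPM in the P2 window and 0 to 2.18 CPM in the P10 window, levels too low for a fold to be given. Svep1, a matrix protein that binds Tie1, averaged 94.5 and 110 CPM and did not pass.

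Of 10 other angiogenic ligands, 2 rose and 2 fell. Cxcl12, a chemokine for endothelial and progenitor cells, rose from 20.3 to 95.1 CPM in the P2 window to 155 to 577 CPM in the P10 window (log2 fold change 2.29, standard error 0.20, edgeR, adjusted p = 1.13e-06). Adm, the vasodilator adrenomedullin, averaged 50.2 and 117 CPM (log2 fold change 1.20, adjusted p = 1.74e-05). Ptn, the heparin-binding growth factor pleiotrophin, fell by 1.48 on the log2 scale, from a mean of 1097 to 408 CPM (adjusted p = 1.54e-06), and its relative Mdk fell by 0.68, from 454 to 298 CPM (adjusted p = 0.0306). In un-manipulated pups Mdk averaged 407 CPM at P2 and 443 CPM at P10, so its lower level at P10 was in the operated groups, with 533 and 254 CPM after sham surgery and 421 and 195 CPM after resection. The windows of Cxcl12, Adm and Ptn did not overlap.

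Of 8 angiogenesis inhibitors, 2 rose. Serpinf1, which encodes the anti-angiogenic factor PEDF, was at 252 to 459 CPM in the P2 window and 597 to 1197 CPM in the P10 window (log2 fold change 1.43, standard error 0.13, edgeR, adjusted p = 1.08e-06). Timp3, which blocks VEGF-A binding to VEGFR2, averaged 185 and 322 CPM (log2 fold change 0.79, adjusted p = 0.00256), with 21.28% of its exon bases shared with Syn3 on the other strand. Thbs2 and Thbs1, with the highest CPM of the list over the 18 libraries, averaged 1045 and 1055 CPM in the P2 window and 1177 and 858 CPM in the P10 window and did not pass.

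Of 12 hypoxia-inducible factors and targets, 2 rose, a share near the 13.5% of all genes called, so the count is not a result about this list. Epas1, which encodes HIF-2α, averaged 39.8 and 66.7 CPM (log2 fold change 0.77, edgeR, adjusted p = 0.0167), and Ndrg1 14.1 and 31.2 CPM (log2 fold change 1.14, adjusted p = 0.00577). Ldha and Egln1, with the highest CPM of this list, had log2 fold changes of -0.05 and 0.14. The median over this list was 0.02. None of the 12 was called between the ages at baseline, after sham surgery or after resection taken singly.

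**Figure D5:**
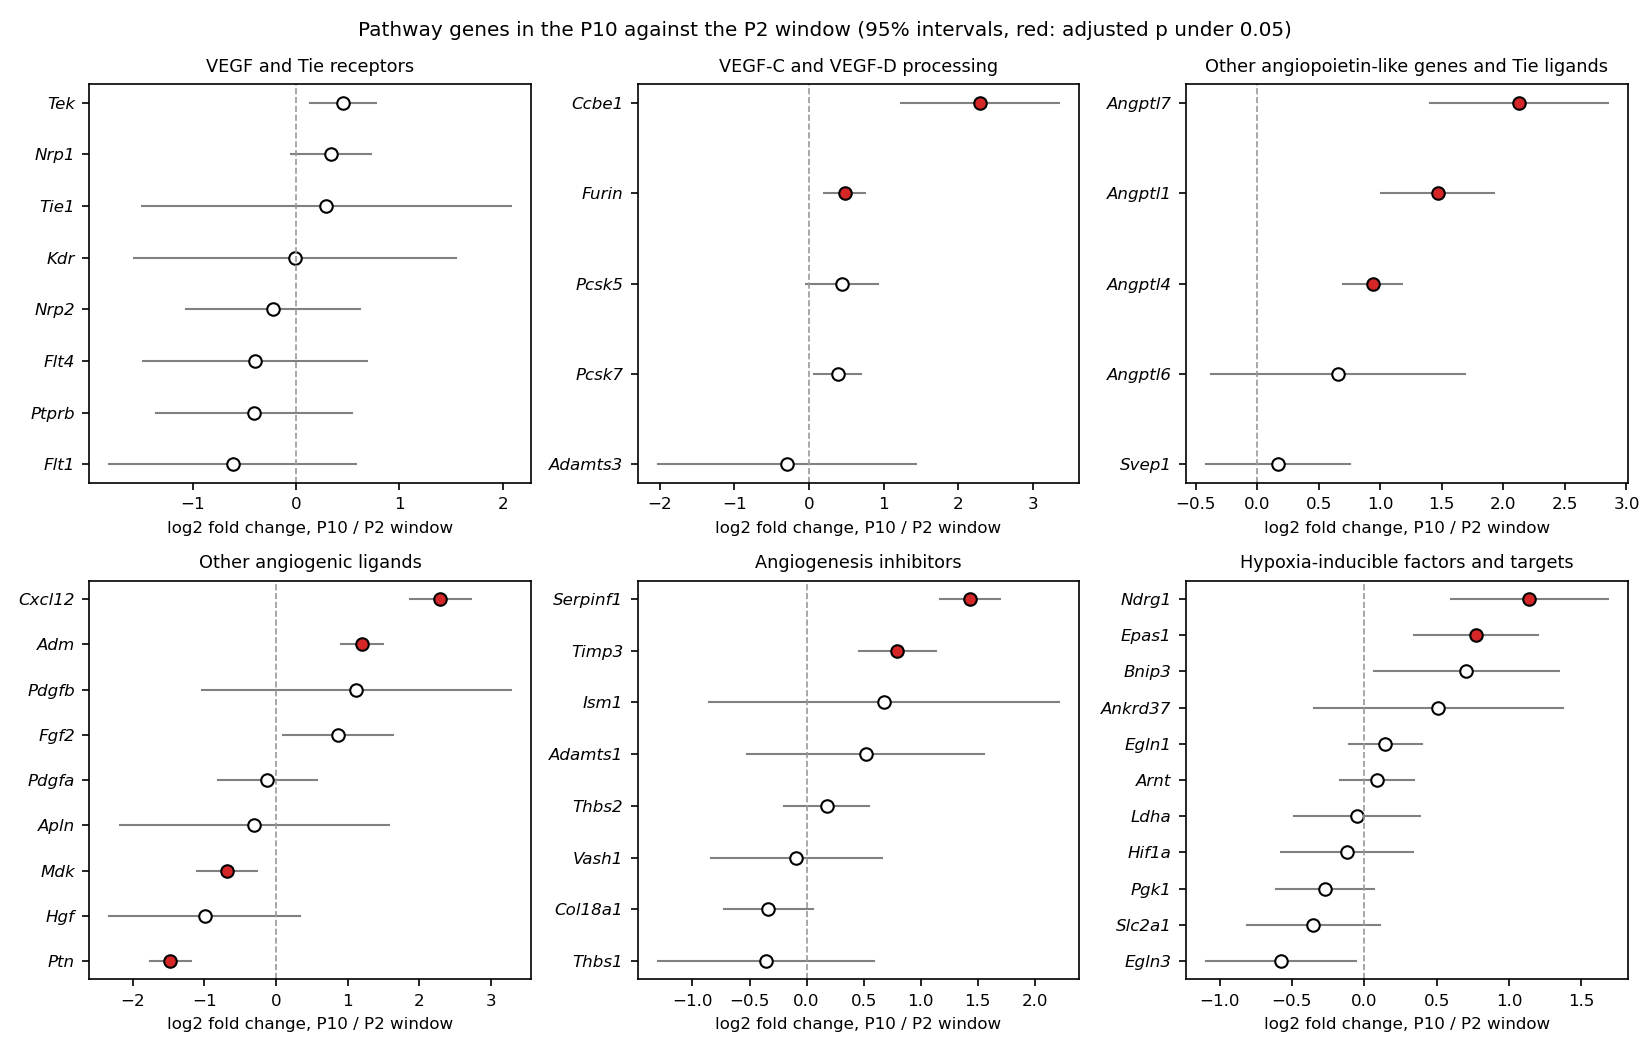
Log2 fold change of the P10 against the P2 window (point) with its 95% interval (line) for 46 of the 50 pathway genes, in 6 lists, with a scale of its own in each panel. Red points have an adjusted p under 0.05. Genes that averaged under 1 CPM in a window are not drawn.

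Across the 18 libraries, few pairs of members moved together. Pearson's r of log2 CPM was highest for Vegfa and Vegfc, at 0.59, and lowest for Vegfa and Vegfb, at -0.57. Pgf and Angptl2, both higher in the P10 window, had an r of 0.34. The libraries share groups and differ in depth and in RNA of other cells, so these values are descriptions.

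The genes most like each member over the 18 libraries were found by the same measure. For Angptl2 these were Evc, a ciliary protein of hedgehog signaling, with an r of 0.93, and Itga7, a laminin receptor subunit, with 0.92. For Pgf they were Mfsd3 at 0.90 and Glmp at 0.88, and for Vegfa Pdzd2 and Heg1 at 0.89 each. Vegfb was most like Ssbp3 at 0.84 and Limk2 at 0.83, Vegfc most like Ino80 at 0.87 and Gm43813 at 0.83, and Vegfd most like Gm45718 at 0.79 and Gm29666 at 0.78. Angpt1 was most like Zfp398 at 0.90 and Dhdh at 0.89, and Angpt2 like Gnai1 and Katna1 at 0.72 each.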

How the data were processed

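The authors trimmed reads with FastP 0.20.0, mapped them with STAR 2.7.0f to GRCm38.p6 with GENCODE M22 and counted exon reads per gene symbol with featureCounts (Subread 1.6.4), ignoring strand. The table deposited holds these whole-number counts, without normalization, and every count column was used. Multi-mapping reads are not counted by default.

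The counts were filtered with filterByExpr (minimum count 10, minimum total 15) and scaled by TMM. One quasi-likelihood model with 6 group means was fitted to the 18 libraries with edgeR 4.0.16 in R 4.3.3, and Benjamini-Hochberg adjusted p-values under 0.05 over the 16170 genes were called. The scripts were tested on simulated data. The 18 pairs of replicates differed by more than sampling noise (chi-square per gene 34.2 to 295), so none was taken as a duplicate. Exon lengths and positions come from GENCODE M21, 1 release before that of the counts, and promoter windows from RefSeq. A floor of 3 counts covers counting error only.

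Alternatives were DESeq2 1.42.0, limma 3.58.1 (voom with quality weights), RLE and upper-quartile scaling, other filters (every gene with at least 1 count, or a CPM of at least 1 in at least 9 libraries), only the groups compared, the replicate number as a block, and leaving out each library.

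The members and gene lists were chosen with earlier results of these data known. Named were all 8 members, every list gene called in the window or in a resection comparison, the 2 genes of each list with the highest mean CPM, and the 2 genes most like each member. Chosen after the values were seen were the comparison over both ages, the 2 contrasts between age differences, and the mention of Angptl4 after sham surgery, of Tie1 and Kdr, and of single marker genes.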

Additional observations from a re-analysis of the deposited data

How the results depend on the processing

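In the window comparison 2 members were called, 1 when every gene with at least 1 count was tested, and 0 to 2 with each library left out. At baseline 1 member was called, 0 with every gene of at least 1 count, 0 with only the groups compared, 2 with limma voom, which called 3645 of 16170 genes there against 709 in edgeR, and 0 to 2 with each library left out. In the age difference after resection minus at baseline no member was called, and 1 (Angptl2) with DESeq2, which called 137 of 15493 genes. In the other 9 comparisons the number of members called was 0 in every alternative run. Where such a count moved, the cause was not tested, apart from fewer libraries or more genes in the fit.

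Single members reversed where their value was near 0 or rested on 1 library. Vegfc in the window was 0.03 on the log2 scale and -0.0534 to 0.17 with each library left out. Angpt1 in the window was 0.53, with limma voom -0.0894, and -0.0439 to 0.76 with each library left out. At baseline Angpt1 was 0.86, with limma voom -1.23, and -0.85 to 1.43 with each library left out. Angptl2 after resection was -0.01, and 0.0128 with RLE scaling, 0.0197 with upper-quartile scaling, 0.00578 with every gene of at least 1 count, 0.00481 with only the groups compared, 0.0129 with DESeq2, and -0.13 to 0.0680 with each library left out.

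With the replicate block, the window values were 0.65 for Pgf and 0.35 for Angptl2 on the log2 scale, 2 members stayed called there, and no call of a member changed in any comparison. The replicate numbers share no stated litter or day. Over 45 pairs of libraries with the same number, the correlation of deviations from the group means was -0.135 to 0.378 (median 0.0466), with 15 pairs over 0.1. Over 90 pairs with different numbers it was -0.285 to 0.208 (median -0.0248), with 12 pairs over 0.1, and 10 of 18 libraries correlated best with one of their own number. Same-numbered libraries thus deviated together somewhat more often. Whether the numbers mark a shared litter or day cannot be decided from these correlations. Apart from this alternative, the fits held no replicate block. Among the members, Vegfa was highest in replicate 1 of every group except P2 resected. Depth limits Angpt1 and Angpt2 most, since their libraries held as few as 0 and 25 counts.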

Other observations

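Of the 9 fibroblast markers, 3 were higher in the P10 window and 1 was lower. Dcn, a small proteoglycan, rose between the windows by 0.95 on the log2 scale and Lum by 0.72, while Postn, a matricellular protein of immature and activated fibroblasts, fell by 1.24 (edgeR, adjusted p = 0.000262, 0.00463 and 0.00269). Among mural cell markers Kcnj8 rose by 1.10 (adjusted p = 0.000499), and Mcam fell by 0.86 (adjusted p = 0.0190). The macrophage and endothelial lists held 1 called gene each in this comparison, Itgam and Esam. These values are given without an explanation.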
